A study of Rattus norvegicus with 4 samples.

Results

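The genes described here are 9 core genes of the Notch signaling pathway. They comprise the receptors Notch1, Notch2, Notch3 and Notch4, the ligands Jag1, Jag2 and Dll1, and the target genes Hes1 and Hes5. Rows of the deposited table were named by looking up each transcript accession in the RefSeq genes of GRCr8, and where a gene had several rows the brightest on average was kept. Of the 9 genes, 6 were measured on all 4 arrays, out of 6968 genes with a named and measured row. Notch1 and Jag2 were not matched to a row by accession and were not analysed here, and the row of Hes5 (NM_024383) was blank on all 4 arrays. Colon tissue of male Sprague Dawley rats was compared between a control group and a group with mesenchymal stem cell transplantation (MSCT group), with 2 rats per group and 1 one-color NimbleGen array per rat. According to the labels and the paper's methods, rats of the MSCT group received TNBS, a hapten that causes colitis, by the rectum and then GFP-labeled mesenchymal stem cells from a commercial source through the tail vein. The control group had no cells. Its description as normal rats in the sample labels differs from its description as IBD rats in the paper, so whether these animals received TNBS is not settled, and differences below cannot be assigned to the cells or to the colitis. The series design text uses both descriptions. No age or day is given in the labels, and the paper's text names more than 1 day for the chips.

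Notch signaling passes between neighboring cells. A ligand of the Jagged or Delta-like family on one cell binds a Notch receptor on the next, the receptor is cut by an ADAM protease and then by γ-secretase, and the freed intracellular part enters the nucleus, where it joins the DNA-binding protein RBPJ and turns on genes such as Hes1 and Hes5. In the intestinal crypt, Notch signaling keeps progenitor cells dividing and directs them to the absorptive rather than the secretory fate, because the Hes1 repressor holds down Atoh1. In the gut wall, Notch4 is known from endothelial cells and Notch3 from smooth muscle cells and pericytes.

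RBPJ is known to bind DNA at the letters TGGGAA. To show where these letters lie near the Notch genes, the 250 bases before the annotated start were read from the RefSeq promoter table (GRCr8), which held 10 starts for the 9 genes (2 for Jag2). The RBPJ core TGGGAA was searched on both strands, together with GTGGGAA, which contains the core, and with the N-box CACNAG, which Hes proteins bind (its matches overlapped no RBPJ match in these genes). The core was found in 4 of the 9 genes (Hes1, Hes5, Dll1 and Notch4), and in 22.1% of all 33469 stretches of this length. GTGGGAA was found in Hes1, Hes5 and Dll1 and in 5.27% of all stretches, and CACNAG in 4 of the 9 genes (Notch1, Notch3, Notch4 and Hes1) and in 37.2% of all. The 4 stretches with the core are printed below from 5′ to 3′ on the strand of the gene, with the core in capitals (TTCCCA where it lies on the opposite strand).
Hes1 (chr11:84213046-84213295, minus strand): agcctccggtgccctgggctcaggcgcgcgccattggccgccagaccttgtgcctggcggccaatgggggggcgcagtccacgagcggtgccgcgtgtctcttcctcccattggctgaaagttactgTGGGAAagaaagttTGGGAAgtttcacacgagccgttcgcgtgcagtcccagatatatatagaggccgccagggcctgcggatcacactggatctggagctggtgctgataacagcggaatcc
Hes5 (chr5:170804327-170804576, plus strand): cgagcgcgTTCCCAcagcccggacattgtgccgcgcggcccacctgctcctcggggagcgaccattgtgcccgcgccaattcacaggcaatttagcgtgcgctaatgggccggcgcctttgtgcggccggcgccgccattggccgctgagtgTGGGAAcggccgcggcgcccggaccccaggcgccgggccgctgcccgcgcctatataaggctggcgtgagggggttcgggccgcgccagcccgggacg
Dll1 (chr1:64993275-64993524, minus strand): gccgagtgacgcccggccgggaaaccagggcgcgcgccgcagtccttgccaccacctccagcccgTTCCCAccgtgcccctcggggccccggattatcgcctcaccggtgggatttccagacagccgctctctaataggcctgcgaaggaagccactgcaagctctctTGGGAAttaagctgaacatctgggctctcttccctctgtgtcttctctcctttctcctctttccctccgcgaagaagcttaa
Notch4 (chr20:4189073-4189322, minus strand): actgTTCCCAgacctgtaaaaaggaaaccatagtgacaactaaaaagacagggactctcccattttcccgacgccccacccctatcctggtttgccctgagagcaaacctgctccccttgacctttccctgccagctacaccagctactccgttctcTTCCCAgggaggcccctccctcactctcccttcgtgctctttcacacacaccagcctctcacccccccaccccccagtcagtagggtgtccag
In Hes1 both cores lay on the strand of the gene, at bases 123 to 118 and 109 to 104 before the start. In Hes5 they lay on opposite strands, at 242 to 237 and 98 to 93, and both were part of GTGGGAA. None of the 3 motifs was found in the stretches of Notch2, Jag1 or Jag2, which says only that these letters are not in these windows.

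The medians of the arrays were close, between 848 and 893 intensity units. Across rows, r of the log2 values was 0.953 between the control arrays and 0.964 between the MSCT arrays. Between arrays of different groups it was 0.934 to 0.959, so the control arrays were not closer to each other than to every MSCT array. The groups were compared with limma, which fits each row and borrows its variance in part from all the others. Of the 18350 rows with values, 2196 (12.0%) reached an unadjusted p under 0.05, and 4.63% also differed by more than 2-fold. Passing both limits is called the screen below. The paper screened with the same limits on p and fold change, and its text does not name limma. With the methods' t-test in place of limma, 2.11% of rows passed both limits. An adjusted p of 0.05 was passed by 0 rows, with limma as with the methods' t-test. The control arrays were more than 2-fold apart in 8.73% of rows and in 0 of the 6 Notch genes. Group values did not overlap in 45.8% of rows. The labelled tissue was described with marker lists. Values on all 4 arrays were present for 10 of 13 epithelial markers, Epcam and Krt8 among them. They were also present for 10 of 15 markers of smooth muscle and pericytes, Acta2 among them. A filled row does not by itself show the tissue. Among the brightest 25% of rows were 9 of the 10 epithelial markers and 7 of the 10 markers of smooth muscle and pericytes. The 4 measured goblet markers (of 10 listed) were all higher in the MSCT group with an unadjusted limma p under 0.05, and their summed intensity was 3007 to 3485 on the control arrays and 19644 to 19809 on the MSCT arrays. The 6 measured leukocyte markers (of 16, 4 of them blank, Cd3d among these) summed to 3143 to 3442 in the control group and 6044 to 7057 in the MSCT group, and 3 of 6 had such a p, all higher (Cd68, Csf1r and Lyz2). The 9 markers of enteric glia and neurons summed to 12485 to 13185 and 9165 to 9741, and 3 of 9 had such a p, all lower. Of the fibroblast markers 2 of 7 were higher with such a p (Col1a2 and Vim), of the absorptive colonocyte markers 1 of 8 (Alpi), and 0 of 10 epithelial markers and 0 of 6 reference genes (Actb and Gapdh among them) had one. The part of these cell types in the results below was not tested.

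**Figure D1:**
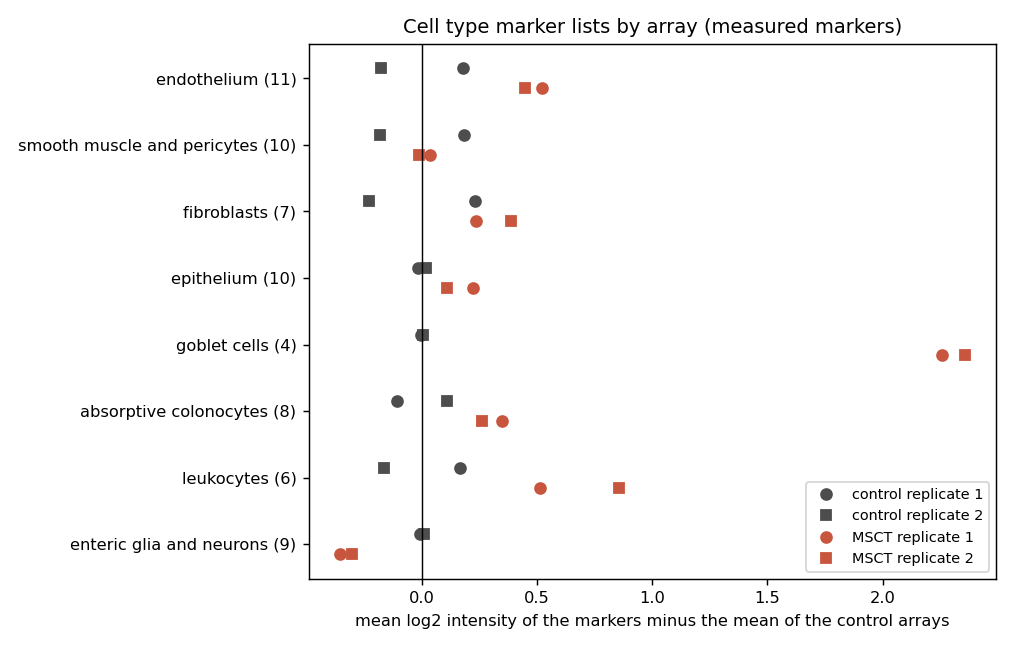
Mean log2 intensity of each cell type marker list on each array, relative to the mean of the control arrays, with the number of measured markers in parentheses. Goblet cell markers lie furthest to the right on both MSCT arrays, and the nerve markers lie to the left of both control arrays.

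None of the 6 measured Notch genes passed the test between the groups. By limma, 0 of 6 had an unadjusted p under 0.05, against 12.0% of all rows, and 0 of 6 passed the screen, against 4.63%. The methods' t-test, the equal-variance test to which one-way analysis of variance reduces for a pair of groups, also gave 0 of 6 at an unadjusted p under 0.05, against 9.66% of all rows, and 0 of 6 past the screen, against 2.11%. In the MSCT group, 3 genes had the higher mean (Jag1, Notch4 and Hes1) and 3 the lower (Notch2, Notch3 and Dll1), and the MSCT mean was the higher one in 48.0% of all rows. The median log2 difference, MSCT minus control, was 0.02, and that of all rows was -0.02. Of the 6968 named genes, from which the 6 come, 3885 had the higher mean in the MSCT group, and the median was 0.05. The groups did not overlap in 2 of 6 genes, against 45.8% of all rows. These 2 genes were Notch2 and Jag1, which lay in opposite directions. In the same 2 genes the difference between the groups was larger than the gap between the replicates of either group, as in 32.4% of all rows. In whole colon tissue, fewer cells of a type and less RNA per cell cannot be told apart.

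**Figure D2:**
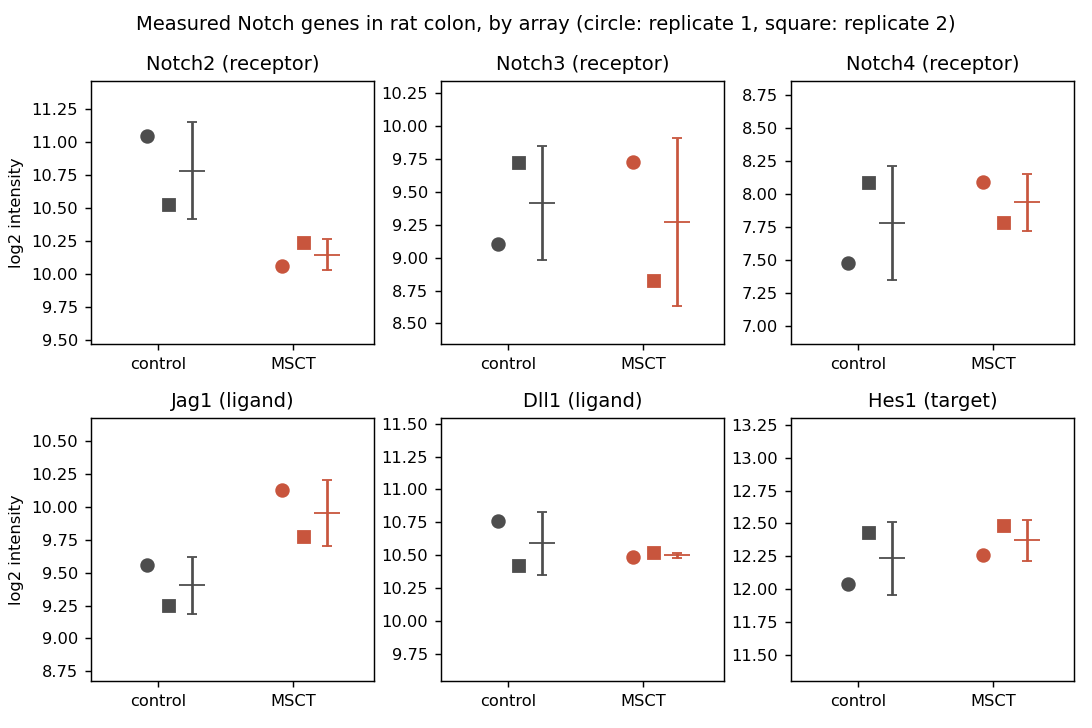
Log2 intensity of the 6 measured Notch genes on each array, with the mean and SD of each group (n = 2) beside the points. Each panel spans 2 log2 units. The points of the groups are apart for Notch2 and Jag1 and overlap for Notch3, Notch4, Dll1 and Hes1.

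Among the receptors, Notch2 (NM_024358) had the largest difference, and it did not pass the test. The gene encodes a widely expressed receptor that acts with Notch1 in intestinal crypts. Listed as replicate 1 and then 2, here and for the other genes, the intensity of Notch2 was 2114 and 1471 in the control rats against 1068 and 1201 in the MSCT rats. Both MSCT values lay below both control values, as in 24.5% of all rows and in 1411 of the 6968 named genes. On the log2 scale, Notch2 was 10.78 ± 0.37 (SD, n = 2) in the control group and 10.15 ± 0.12 (SD, n = 2) in the MSCT group. The log2 difference was -0.64 (standard error 0.26, 95% interval -1.33 to 0.05), 1.56-fold lower in the MSCT group (limma adjusted p = 0.440, 0.176 to 0.828 over the alternatives). The size of this difference was at the 81.6th percentile of all rows. Control replicate 1 was the highest array: without control replicate 2 the log2 difference was -0.90, with an unadjusted p under 0.05 (limma adjusted p = 0.311), and without control replicate 1 it was -0.38. With dim rows left out or with a variance that depends on intensity, the unadjusted p was also under 0.05, whereas the limma adjusted p was 0.176 or higher.

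Notch3 (NM_020087), the receptor of vascular smooth muscle cells and pericytes, overlapped between the groups. Its intensity was 551 and 843 in the control rats against 845 and 452 in the MSCT rats, so the highest and the lowest of the 4 values both came from the MSCT group. The gap between the MSCT arrays was 0.90 on the log2 scale, and the log2 difference between the groups was -0.14 (standard error 0.41, 95% interval -1.23 to 0.95, limma adjusted p = 0.911). The sign changed without control replicate 2 (0.16) and without MSCT replicate 2 (0.31). The summed intensity of markers of smooth muscle and pericytes (10 of 15 measured) also overlapped. It was 158301 to 196232 on the control arrays and 171766 to 179983 on the MSCT arrays, and bright muscle rows such as Acta2 weigh most in it. The groups did not overlap for 2 of the 10, Pdgfrb (log2 difference 0.86) and Myocd (-0.43), against 45.8% of all rows. An unadjusted limma p under 0.05 was found for 0 of 10, against 12.0% of all rows.

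Notch4 (NM_001002827), the endothelial receptor, was measured on a dim row, at the 20.8th percentile of mean intensity. It measured 178 and 272 in the control rats against 273 and 220 in the MSCT rats, and the groups overlapped. The log2 difference was 0.15 (standard error 0.29, 95% interval -0.62 to 0.93, limma adjusted p = 0.854). Without control replicate 1 it was -0.15, and without MSCT replicate 1 it was -0.00018. Of the endothelial markers, 11 of 17 were measured. Their summed intensity, most of it from Mcam, was 18308 to 23168 on the control arrays and 20220 to 20430 on the MSCT arrays. Their mean log2 intensity, in which each marker counts equally, was 9.18 and 8.82 in the control rats against 9.52 and 9.45 in the MSCT rats and did not overlap. The MSCT mean was the higher one for 9 of the 11, with a median log2 difference of 0.45, and the part of these cells in the Notch4 values was not tested. Higher in the MSCT group with an unadjusted limma p under 0.05 were 2 of the 11, against 4.80% of all rows and 475 of the 6968 named genes. The 2 markers were Plvap (log2 difference 1.58), a protein of endothelial fenestrae, and Eng (0.85), a co-receptor for TGF-β.

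Of the ligands, Jag1 had the higher mean in the MSCT group and Dll1 had close means, and neither passed the test. Jag1 (NM_019147), which encodes the ligand Jagged1, measured 753 and 609 in the control rats against 1119 and 876 in the MSCT rats. Both MSCT values lay above both control values, as in 21.3% of all rows and in 1925 of the 6968 named genes. The group values were 9.40 ± 0.22 and 9.95 ± 0.25 (SD, n = 2 each) on the log2 scale. The log2 difference was 0.55 (standard error 0.24, 95% interval -0.09 to 1.19), or 1.46-fold (limma adjusted p = 0.467, 0.323 to 0.882 over the alternatives), and its size was at the 76.5th percentile of all rows. It stayed above 0 with each array left out, between 0.37 without MSCT replicate 1 and 0.73 without MSCT replicate 2.

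Dll1 (NM_032063), the Delta-like ligand that cells of the secretory lineage present to their neighbors, measured 1734 and 1370 in the control rats against 1436 and 1462 in the MSCT rats. Both MSCT values lay between the control values. The log2 difference was -0.09 (standard error 0.21, 95% interval -0.66 to 0.48, limma adjusted p = 0.888), and the sign changed without control replicate 1 (0.08). The interval corresponds to a ratio of MSCT over control between 0.634 and 1.40 and does not reach the 2-fold limit in either direction.

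The target gene Hes1 (NM_024360), a repressor of the basic helix-loop-helix family, was measured on a bright row, at the 88.6th percentile of mean intensity. It measured 4212 and 5523 in the control rats against 4913 and 5712 in the MSCT rats. The groups overlapped, and the gap between the control arrays (0.39 on the log2 scale) exceeded the log2 difference between the groups, which was 0.14 (standard error 0.23, 95% interval -0.49 to 0.76, limma adjusted p = 0.840). As a ratio of MSCT over control, the interval ran from 0.712 to 1.69, inside the 2-fold limit on both sides. Without control replicate 1 the log2 difference was -0.06. The difference of Hes1, whose stretch with a pair of RBPJ cores is printed above, was smaller than the spread between replicates.

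**Figure D3:**
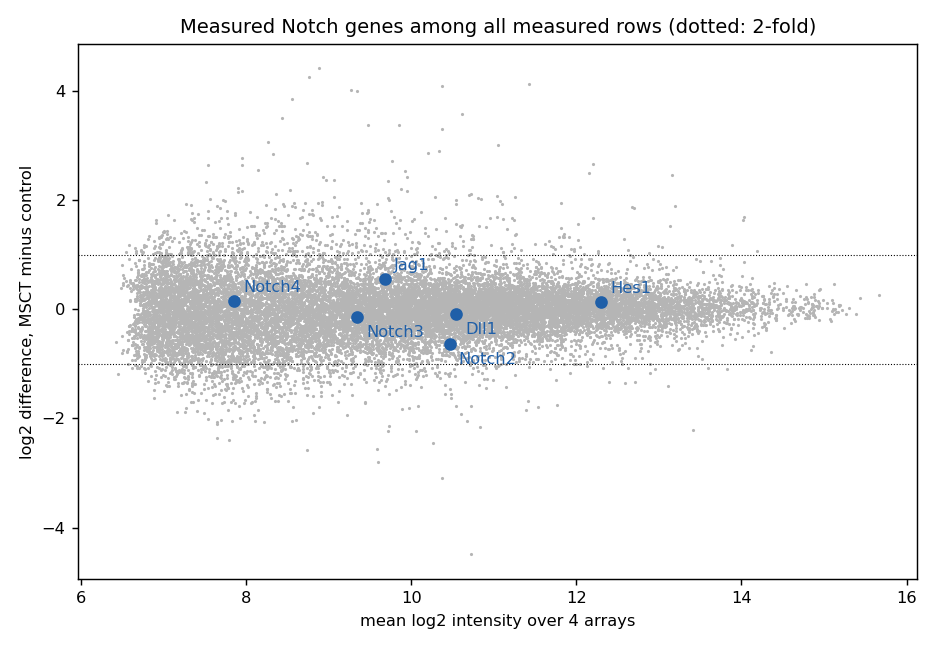
Log2 difference between MSCT and control against mean log2 intensity for all 18350 measured rows (grey), with the 6 Notch genes in blue and 2-fold marked by dotted lines. All 6 lie within 2-fold, from Notch2 at -0.64 to Jag1 at 0.55.

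**Figure D4:**
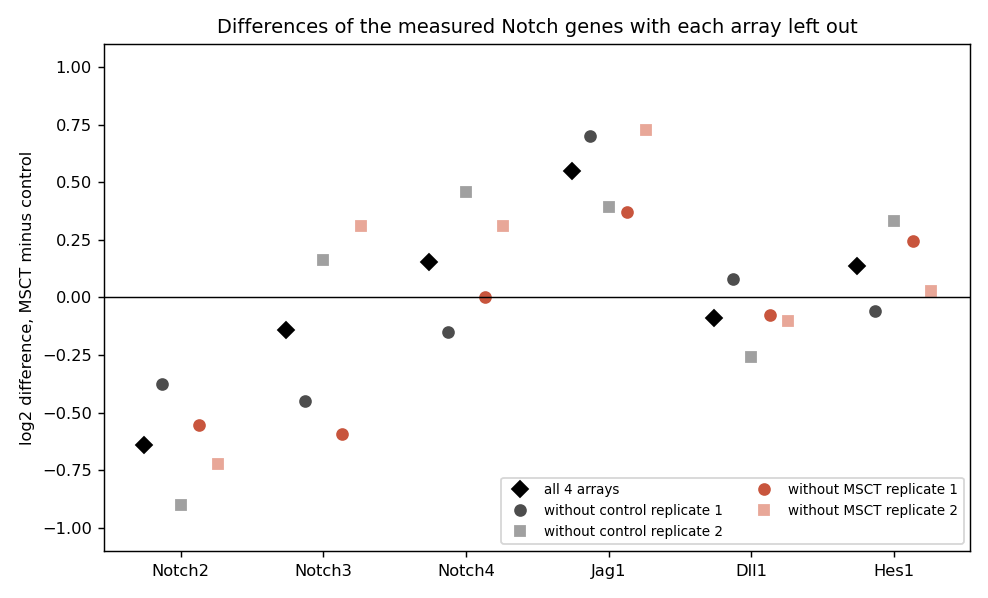
Log2 difference of the 6 Notch genes with all 4 arrays and with each array left out in turn. Notch2 stays below 0 and Jag1 above 0 throughout, whereas Notch3, Notch4, Dll1 and Hes1 have values on both sides of 0 or at it.

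The rest of the pathway was described with a list of 71 other genes, of which 32 were measured. RBPJ, its Maml coactivators, Adam10, Dll4, Olfm4 and the Hey genes were among those not matched to a row by accession. Such a gene can still have a value on the arrays. The paper lists Olfm4 among the most increased genes of its chips, although its PCR gave less Olfm4 in MSCT than in IBD rats. Of the 32 genes, 5 had an unadjusted limma p under 0.05 (15.6%, against 12.0% of all rows), 2 of them higher in the MSCT group (4.80% of all rows were) and 3 lower (7.17% of all rows were). Of the 6968 named genes, 475 were higher and 379 lower with such a p. Among the 5 pathway genes, 1 passed the screen, and 0 passed an adjusted p of 0.05. Higher means in the MSCT group were found for 19 genes and lower means for 13, with a median log2 difference of 0.09 (0.05 over all named genes). The groups did not overlap in 18 of the 32 genes, against 45.8% of all rows, with the MSCT group higher in 8 and lower in 10. The count of pathway genes with an unadjusted limma p under 0.05 was lower without either MSCT array, a fit that leaves 1 array in that group.

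Among the other ligands, Ccn3 (listed by its older name Nov), a matricellular protein that can bind Notch1, was higher in the MSCT group. Its intensity was 4561 and 7078 in the control rats against 11848 and 13275 in the MSCT rats. Both MSCT values exceeded the control values, and the log2 difference was 1.14 (standard error 0.28, limma adjusted p = 0.324), or 2.21-fold. The unadjusted p was above 0.05 without MSCT replicate 2 and by the methods' t-test. Dll3 (log2 difference 0.22), a Delta-like protein that does not activate Notch, was among the dimmest rows and overlapped between the groups, and its difference was -0.10 without MSCT replicate 1. Cntn1, a neural adhesion protein, had a log2 difference of -0.51 (limma adjusted p = 0.426).

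Of the enzymes that place sugars on the receptors, 3 were measured and 1 had an unadjusted limma p under 0.05, against 12.0% of all rows. Pofut1 (NM_001002278), which adds the O-fucose that ligand binding requires, was lower in the MSCT group. It measured 990 and 959 in the control rats against 569 and 499 in the MSCT rats, and no values overlapped. The log2 difference was -0.87 (standard error 0.19, limma adjusted p = 0.298), 1.83-fold lower, and without MSCT replicate 2 the unadjusted p was above 0.05. The Fringe enzymes extend the O-fucose. Lfng had a log2 difference of 0.28 and Rfng of 0.57, with overlap in both. For Rfng, control replicate 1 stood apart, at 217 against 635 on control replicate 2 and 538 and 566 on the MSCT arrays: without control replicate 1 the log2 difference was -0.20, and without control replicate 2 it was 1.34 (limma adjusted p = 0.297, 0.297 to 0.916 over the alternatives).

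Of the proteases that cut the receptors, 8 were measured and 1 had an unadjusted limma p under 0.05 (12.5%, against 12.0% of all rows). This was Adam17 (NM_020306), a sheddase that also releases TNF, with 4073 and 3841 in the control rats against 2704 and 2698 in the MSCT rats. The replicates lay close together and the groups did not overlap. Its log2 difference was -0.55 (standard error 0.18, limma adjusted p = 0.380), 1.46-fold lower, and the unadjusted p was above 0.05 with each array left out in turn. Of the γ-secretase subunits described here, Psen2, a catalytic subunit, had a log2 difference of 0.07 and Ncstn, which receives the substrate, of 0.18. Further subunits, Aph1a, Aph1b and Psenen, had log2 differences of 0.16 to 0.34, and none of these 5 genes had an unadjusted p under 0.05. For Psen2 the sign changed without MSCT replicate 2 (-0.08).

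In the groups of genes that act after the cut, 1 of 8 measured corepressors and 1 of 4 other measured targets had an unadjusted limma p under 0.05. The share of all rows with such a p was 12.0%. Cir1, which links RBPJ to histone deacetylases, measured 2774 and 2976 in the control rats against 1853 and 1882 in the MSCT rats. No values overlapped, and the log2 difference was -0.62 (standard error 0.18, limma adjusted p = 0.345). The unadjusted p was above 0.05 without control replicate 2, MSCT replicate 1 or MSCT replicate 2. Myc, a target that Notch shares with Wnt signaling, measured 1443 and 1038 in the control rats against 2318 and 2582 in the MSCT rats. Its log2 difference was 1.00 (standard error 0.25, limma adjusted p = 0.324), and the unadjusted p was above 0.05 without MSCT replicate 2 and by the methods' t-test. Numb, an inhibitor that sorts the receptor into endosomes, measured 986 on control replicate 1 and between 2399 and 2635 on the other arrays. Its log2 difference was 0.60 with all arrays, -0.11 without control replicate 1 and 1.31 without control replicate 2 (limma adjusted p = 0.297, 0.297 to 0.901 over the alternatives). With a variance that depends on intensity, Ccn3 and Myc passed a limma adjusted p of 0.05 (0.0196 and 0.0469), as did 2.11% of all rows. Over the alternatives the adjusted p ran from 0.0196 to 0.662 for Ccn3 and from 0.0469 to 0.667 for Myc.

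**Figure D5:**
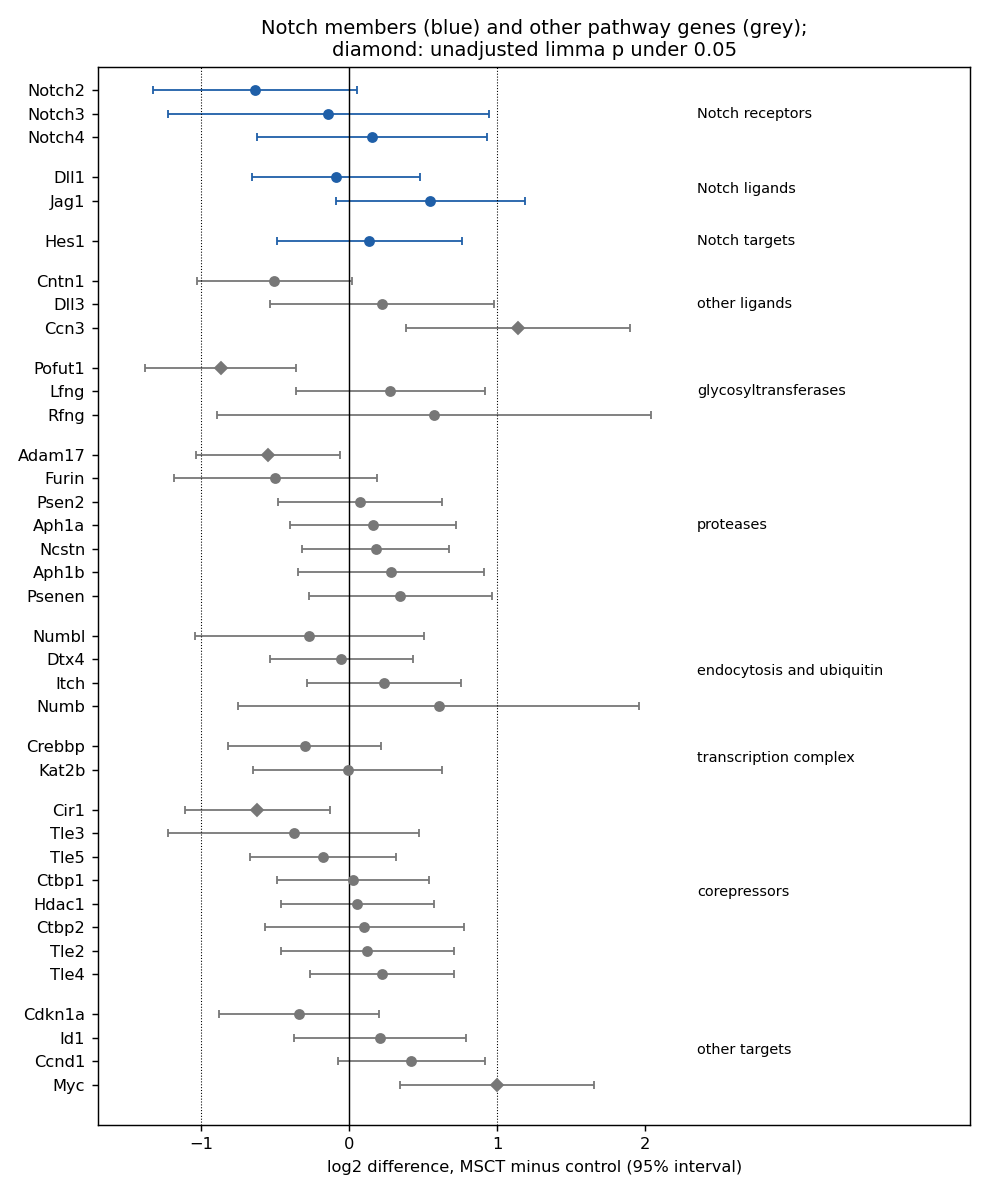
Log2 difference between MSCT and control with the 95% interval of limma for the 6 Notch genes (blue) and 31 of the 32 other measured pathway genes (grey), ordered within roles. Dotted lines mark 2-fold, and the 5 diamonds (Ccn3, Pofut1, Adam17, Cir1 and Myc) have an unadjusted p under 0.05.

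Genes of the cell fates that Notch controls in the crypt were listed separately. Of 23 genes, 11 were measured, and Atoh1, Spdef and Lgr5 were not matched to a row by accession. The paper names Atoh1 as upregulated on its chips, and its PCR also gave more Atoh1 in MSCT than in IBD rats. Of the 11, 1 had an unadjusted limma p under 0.05, against 12.0% of all rows. This was Foxa3, a transcription factor of goblet cells. Foxa3 measured 1529 and 2219 in the control rats against 7421 and 6716 in the MSCT rats, a log2 difference of 1.94 (standard error 0.26, limma adjusted p = 0.257, 0.00129 to 0.633 over the alternatives). Of the 7 secretory genes measured, 4 had the higher mean in the MSCT group and 3 the lower. Besides Foxa3, the higher ones were Neurog3 (log2 difference 0.77), which starts the endocrine fate, Gfi1 (0.24), which keeps secretory cells from that fate, and Klf4 (0.03). The lower ones were Foxa2 (-0.45), Pax6 (-0.24) and Neurod1 (-0.22). None of these 6 had an unadjusted limma p under 0.05. The groups did not overlap for Foxa3, Neurog3, Gfi1 and Foxa2, 4 of the 7 secretory genes, against 45.8% of all rows. The rows of Neurog3, Gfi1, Pax6 and Neurod1 were among the dimmest 25%. The 4 measured stem cell genes (Prom1, Ascl2, Axin2 and Msi1) had log2 differences of 0.35, 0.24, -0.15 and -1.05. Of these, 0 had an unadjusted limma p under 0.05, against 12.0% of all rows. The groups did not overlap for 2 of the 4, Prom1 and Msi1. The row of Msi1 was at the 0.96th percentile of mean intensity, with values between 53.1 and 196 units.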

How the data were processed

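Colon RNA of 4 rats (2 control, 2 MSCT) was measured on NimbleGen arrays in 1 color (Cy3). The authors scanned the arrays, used NimbleScan and deposited linear intensity per RefSeq transcript. The submitters' processing notes name RMA, and how it was applied, how probes were combined and why 8070 of 26420 rows are blank are not given in the sources used here. Value columns without a sample numbered 0.

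Intensities were converted to log2 with no pseudocount, scaling or filter. limma 3.58.1 in R 4.3.3 (lmFit, eBayes) compared MSCT with control on all 18350 measured rows, with Benjamini-Hochberg adjustment over these rows. The smallest two-sided p of an exact permutation test with 2 rats against 2 is 0.333, so calls rest on limma's pooling of variance, and precision is limited by having 4 arrays. The fit was tested on simulated data with known changes, drawn with independent noise from limma's own variance model. Such data cannot show how the fit does where variance depends on intensity or replicates deviate together. Names came from the RefSeq gene table of GRCr8 (38.5% of measured rows named). Intensity also depends on the probes of a row, so percentiles of mean intensity say only how dim a row was and do not rank genes by expression, and sums over markers weigh bright rows most.

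The members and lists were chosen with earlier results of these data known. Named are the 9 genes, genes of the pathway and fate lists with an unadjusted p under 0.05 and those closest in role, and up to 3 markers per list. Genes outside this rule (Cntn1, Aph1a, Aph1b, Psenen, Gfi1, Neurog3, Klf4, Foxa2, Pax6, Neurod1, Prom1, Ascl2, Axin2 and Msi1) were chosen after their values were seen. For 1 measured pathway gene the values are not reported here, although the counts include it. Alternatives were quantile normalization, equal array medians, leaving out dim rows, trend and robust eBayes, array weights, the replicate block, leaving out each array, the row with the largest change, the methods' t-test, linear means and a fold limit of 1.5. Figures were drawn with Python 3.11.15 and matplotlib 3.10.9.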

Additional observations from a re-analysis of the deposited data

How the results depend on the processing

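No Notch gene passed the 2-fold screen under any of the alternatives run. Some of these could not have added a gene. The fold limit of 1.5 was applied only to the default fit, and linear means reused the p of that fit, where 0 of 6 genes had an unadjusted p under 0.05. The row with the largest change was the same row for each Notch gene. Notch2 was 1.56-fold lower, and a limit of 1.5 was not applied to the alternatives in which its unadjusted p was under 0.05. The count of the 6 genes with an unadjusted p under 0.05 was 0 and became 1 with the dimmest 25% of rows left out, with the dimmest 50% left out and with trend and robust eBayes (Notch2 each time), and 1 with the replicate block (Jag1, limma adjusted p = 0.339). The share of all rows with such a p was then 15.7%, 18.9%, 14.7% and 14.6%. With each array left out it was 0 to 1. The count of pathway genes was 8 with trend and robust eBayes and 0 to 5 with each array left out. The median log2 difference of the Notch genes was -0.089 with the dimmest 25% of rows left out (5 genes measured) and -0.089 with the dimmest 50% left out (3 genes), and it ran from -0.11 to 0.25 with each array left out. Dim rows left out removes members, which sets the shift of the median, and the cause of the other shifts was not tested. Signs changed only when single arrays were left out: the log2 differences then ran from -0.59 to 0.31 for Notch3, -0.15 to 0.46 for Notch4, -0.26 to 0.081 for Dll1, -0.060 to 0.33 for Hes1, -0.10 to 0.53 for Dll3, -0.11 to 1.31 for Numb, -0.20 to 1.34 for Rfng and -0.080 to 0.23 for Psen2. Over all rows, 0 passed an adjusted p of 0.05, but 4 did without the dimmest 25%, 247 without the dimmest 50% and 387 with trend and robust eBayes, and no Notch gene was among them. Same-numbered replicates deviated together (r = 0.23 across rows, which are not independent), but with 2 pairs and no shared source in the labels the numbers were not taken to pair the rats. The replicate block moved the rows with an unadjusted p under 0.05 from 2196 to 2686 and changed no other call of the Notch genes. Hes5 is blank, Notch1 and Jag2 have no named row, and Notch4 and Dll3 lie among the dimmest 25% of rows.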
